A study of Mus musculus with 6 samples.

Results

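The proteasome is the barrel-shaped protease that degrades proteins tagged with ubiquitin. Its core particle is a stack of rings of alpha subunits (*Psma* genes) and beta subunits (*Psmb* genes), and the beta rings hold the cutting sites. A regulatory particle caps the core, with a ring of ATPases that unfold the substrate (*Psmc* genes) and with scaffold, ubiquitin-binding and ubiquitin-removing subunits (*Psmd* genes). Other caps open the core without ubiquitin (*Psme* genes), and inhibitor and assembly factors (*Psmf1* and *Psmg* genes) complete the system. In many cell types most of these genes are transcribed in concert, and *Nfe2l1* encodes the transcription factor best known for raising them when proteasome activity is low.

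The proteasome genes were taken by symbol from the table of BM MSCs (*Psma* to *Psmg* followed by a number), leaving aside the interferon-induced subunits *Psmb8* and *Psmb9*. This gave 46 of the 56980 genes listed, of which 17 belonged to the core particle, 20 to the regulatory particle and 9 to the activators, the inhibitor and the assembly chaperones. RNA-Seq covered TranspCtrl and TranspExer recipients, with 3 samples each. All 6 samples came from female mice ovariectomized (OVX) when 8 weeks old, pretreated with antibiotics and then given fecal microbiota (FMT) over 8 weeks. The donors were sedentary OVX mice for TranspCtrl and treadmill-exercised OVX mice for TranspExer, so that the comparison asks what the donor's exercise changes in the recipient's marrow cells. The mouse strain, and whether a sample was 1 animal or a pool, are not given in the sources used here, and the p-values therefore measure the spread between these samples, which may be partly technical. The marrow was flushed and kept in culture for 7 days with washes, and no sorting is described, so other adherent marrow cells could be present.

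Of the 46 genes, 45 passed the low-count filter and were tested. The exception was *Psmb11*, which encodes the core subunit found in the thymic epithelium and which had 0, 3 and 0 counts in TranspCtrl replicates 1, 2 and 3 and 0, 1 and 0 counts in TranspExer replicates 1, 2 and 3. Total counts were between 17647682 and 21319228 per sample, and 3 counts equalled 0.141 to 0.17 CPM, the count relative to library size, which was scaled with TMM factors for all levels given as CPM. TranspCtrl replicate 1 stood apart. Averaged over all tested genes, its chi-square distance was 59.2 and 54 from TranspCtrl replicates 2 and 3, against 3.79 between those and 4.43 to 7.82 within TranspExer, so the main results are also given without it. Genes of the stromal list summed to between 13400 and 22400 CPM in all samples, and none of its 10 genes was at 0. Markers of other cell types were also present, and their counts are to be read beside the 32.2% of all tested genes that passed the edgeR test at an adjusted p-value of 0.05. In TranspExer, 7 of 7 endothelial genes rose (608 to 666 CPM summed, against 189 to 235 in TranspCtrl) and 3 of 9 neutrophil genes rose and 1 fell (5480 to 5700 against 3170 to 4250). The pan-leukocyte list had 3 of 5 genes that rose and 1 that fell (2930 to 3110 against 1520 to 2020), whereas the macrophage list had 3 of 9 that passed (33.3%), 2 that rose and 1 that fell, and sums that overlapped (4510 to 4680 against 4030 to 4940). That overlap came from TranspCtrl replicate 1, at 4940 CPM. Without it, 5 macrophage genes rose and 1 fell (66.7%, beside 41.7% of all genes), and 6 neutrophil genes rose and 0 fell. Osteoclast genes fell, 7 of 7 (179 to 193 against 702 to 712 CPM), as did 7 of 9 B and plasma cell genes (578 to 611 against 1750 to 2080) and 8 of 10 stromal genes, with 1 stromal gene that rose. Erythroid genes summed to at most 0.558 CPM in any sample. In such bulk samples, fewer cells of a type and less RNA per cell cannot be told apart, and the part of these cell types in the values of the proteasome genes was not tested.

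The proteasome as a whole differed little between TranspExer and TranspCtrl. With edgeR's quasi-likelihood test and Benjamini-Hochberg adjustment over 15190 genes, 4 of the 45 tested genes (8.89%) passed an adjusted p-value of 0.05, beside 32.2% of all tested genes. *Psmd3* and *Psme3* rose, and *Psmb7* and *Psmc6* fell, so that there were 2 genes in each direction, beside 16.6% of all genes that rose and 15.5% that fell. With the fold change of 2 used in the study's methods as a further threshold, 0 of 45 passed by edgeR, by DESeq2 and by limma voom, whereas 8.78% of all genes passed by edgeR (3.5% higher and 5.28% lower). Of the 45, 6 had an unadjusted p-value under 0.05 in the higher and 2 in the lower direction, against 2 and 2 with upper-quartile normalization or scaling by library size only. In the main edgeR fit, 6740 of all 15190 tested genes had such a p-value in either direction. The log2 fold changes (TranspExer over TranspCtrl) of the 45 genes lay between -0.50 and 0.52, with a median of -0.03 beside -0.02 for all genes. Their median absolute value was 0.12, beside 0.29 for all genes, which were not matched to them for counts.

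The intervals of these genes were narrow, with a median SE of 0.10 beside 0.14 for all tested genes. The tested genes were not matched to the proteasome genes for counts. The 95% interval of the log2 fold change, not adjusted for the number of genes, lay within 1 on either side of 0 for 45 of 45 proteasome genes and for 72.7% of all tested genes. It lay within 0.5 for 30 of 45 (66.7%), beside 35.3% of all genes. The bound farthest from 0 was 0.93, for *Psmg3*, an assembly chaperone with few counts. All 3 TranspExer samples lay above all 3 TranspCtrl samples for 7 of the 45 genes and below them for 2, beside 27.2% and 25.1% of all genes and 52.4% in either direction.

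**Figure D1:**
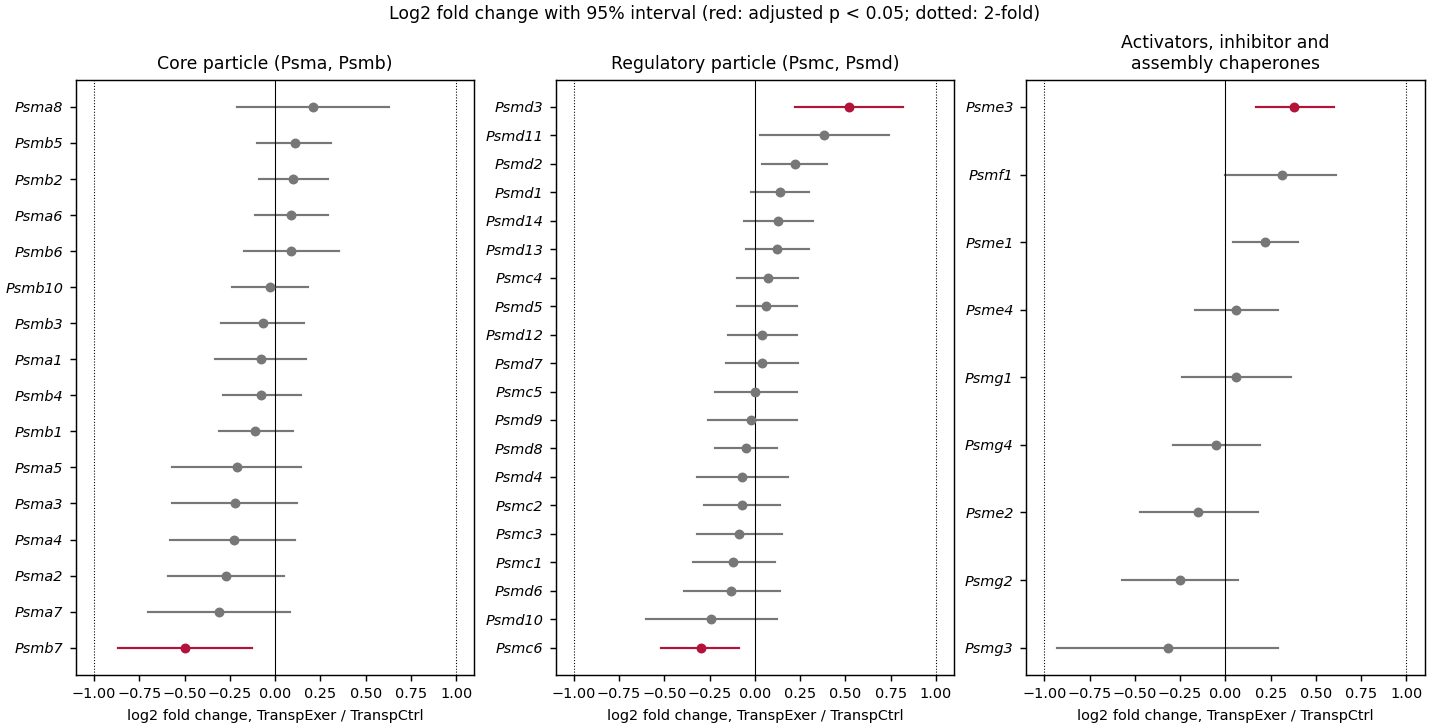
Log2 fold change of each tested proteasome gene (points, TranspExer over TranspCtrl, horizontal axis) with its unadjusted 95% interval (lines), in the core particle, the regulatory particle and the other factors. Every interval stays between the dotted lines at a 2-fold change, and the 4 genes with an adjusted p-value under 0.05 (*Psmd3*, *Psme3*, *Psmb7* and *Psmc6*) are in red.

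The core particle had 1 gene that changed among 16 tested. *Psmb7*, which encodes the constitutive trypsin-like beta subunit, fell. It had 92.5, 61.4 and 69.1 CPM in TranspCtrl replicates 1, 2 and 3 and 59.2, 53.4 and 45.3 CPM in TranspExer replicates 1, 2 and 3. The groups did not overlap, but TranspExer replicate 1 was close to TranspCtrl replicate 2, and TranspCtrl replicate 1 was far above the rest. The mean was 74.3 ± 16.2 CPM in TranspCtrl and 52.6 ± 6.99 CPM in TranspExer (SD, n = 3 each), and the log2 fold change was -0.50 (SE 0.16, edgeR adjusted p = 0.0479). Without TranspCtrl replicate 1 the gene still fell, by 0.31 on the log2 scale (edgeR adjusted p = 0.0171), and over the 15 alternative settings it passed in 9. The gene lies at chr2:38588036-38644087 (mm10, minus strand), where its exons overlap those of *Nek6* on the opposite strand, which had between 1626 and 2134 counts and a log2 fold change of 0.04 (edgeR adjusted p = 0.755). How reads were assigned between them is not given in the sources used here.

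The remaining catalytic subunits had groups that overlapped. *Psmb5* encodes the chymotrypsin-like subunit, the main target of proteasome inhibitors such as bortezomib. It had 84.4, 69.8 and 76.9 CPM in TranspCtrl and 84.0, 80.4 and 84.2 CPM in TranspExer (log2 fold change 0.11, 95% interval -0.10 to 0.31). TranspCtrl replicate 1 was level with TranspExer, and TranspCtrl replicates 2 and 3 were below it. *Psmb6*, the caspase-like subunit, had 79.2, 61.7 and 73.5 CPM in TranspCtrl and 83.4, 75.7 and 69.6 CPM in TranspExer (log2 fold change 0.09, interval -0.17 to 0.35). *Psmb10*, the interferon-induced counterpart of *Psmb7*, had 77.6, 67.1 and 64.3 CPM in TranspCtrl and 70.3, 65.1 and 69.0 CPM in TranspExer (log2 fold change -0.03, interval -0.24 to 0.18). For these 2 genes most or all TranspExer values lay within the range of TranspCtrl. Of the other interferon-induced subunits, which are not among the 46 genes, *Psmb8* had a log2 fold change of -0.17 (edgeR adjusted p = 0.476) and *Psmb9* one of -0.26 (adjusted p = 0.0979), or 0.06 and -0.15 without TranspCtrl replicate 1.

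The structural core subunits had overlapping groups as well. Among the 16 tested core genes, 11 had a negative log2 fold change and 5 a positive one, with a median of -0.08, and only *Psmb7* passed the test. The values ran from -0.31 for *Psma7*, -0.27 for *Psma2* and -0.23 for *Psma4*, which encode alpha ring subunits, to 0.10 for *Psmb2*, a beta ring subunit. *Psma8*, which encodes the alpha subunit that replaces that of *Psma7* in the testis, stood at 0.21 from low counts, with a 95% interval of -0.21 to 0.63. The median CV within TranspCtrl was 12.8% for core genes, and 7.35% when only replicates 2 and 3 were used, beside 7.64% within TranspExer. For all tested genes the same values were 13.1%, 4.79% and 7.16%.

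The regulatory particle had 1 gene that rose and 1 that fell among 20. *Psmd3*, which encodes a subunit of the lid of the regulatory particle, rose. It had 87.8, 120 and 123 CPM in TranspCtrl replicates 1, 2 and 3 and 164, 156 and 154 CPM in TranspExer replicates 1, 2 and 3. The TranspExer samples were close to each other and all above TranspCtrl, whose replicate 1 was the lowest of the 6. The mean went from 110 ± 19.5 CPM to 158 ± 5.1 CPM (SD, n = 3 each), a log2 fold change of 0.52 (SE 0.13, edgeR adjusted p = 0.0185). Without TranspCtrl replicate 1 it was 0.38 (edgeR adjusted p = 0.000106), and it passed in 12 of 15 alternative settings, all but those that left out a TranspExer sample. The gene lies at chr11:98682554-98695979 (mm10, plus strand), and the exons of *Gm12356*, a gene with at most 1 count, overlap it.

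*Psmc6*, which encodes an ATPase of the regulatory particle, fell. It had 115, 105 and 106 CPM in TranspCtrl and 94.4, 92.4 and 78.2 CPM in TranspExer. The groups did not overlap, with TranspExer replicate 3 the lowest. The mean went from 109 ± 5.4 to 88.3 ± 8.83 CPM (SD, n = 3 each), a log2 fold change of -0.30 (SE 0.09, edgeR adjusted p = 0.0412). The call passed in 9 of 15 settings and was lost after a correction for GC content (log2 fold change -0.18, adjusted p = 0.137), which was chosen after seeing the data. *Psmc6* lies at chr14:45329788-45349705 (mm10, plus strand). The remaining ATPase genes, *Psmc1* to *Psmc5*, had log2 fold changes between -0.12 and 0.07 with overlapping groups.

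Further genes, 3 in number, of the regulatory particle had TranspExer samples above all TranspCtrl samples without passing the test. *Psmd2*, which encodes a large scaffold subunit that binds ubiquitin-like domains, had 254, 279 and 271 CPM in TranspCtrl and 313, 304 and 321 CPM in TranspExer (log2 fold change 0.22, SE 0.08, edgeR adjusted p = 0.0598). *Psmd11*, a lid subunit, had 75.2, 117 and 110 CPM and 127, 126 and 141 CPM (log2 fold change 0.38, SE 0.16, adjusted p = 0.094). *Psmd1*, the other large scaffold subunit, had 153, 152 and 148 CPM and 169, 170 and 162 CPM (log2 fold change 0.14, SE 0.07, adjusted p = 0.152). TranspCtrl replicate 1 was the lowest sample for *Psmd2* and *Psmd11* but not for *Psmd1*. The deubiquitinase gene *Psmd14* stood at 0.13, the ubiquitin receptor gene *Psmd4* at -0.07, and the base chaperone genes *Psmd5*, *Psmd9* and *Psmd10* at 0.06, -0.02 and -0.24, all with overlapping groups. The median over the 20 genes was 0.02, and it was -0.06 with upper-quartile normalization and -0.07 with scaling by library size only, which lowered the median of all genes by 0.08 and 0.09.

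**Figure D2:**
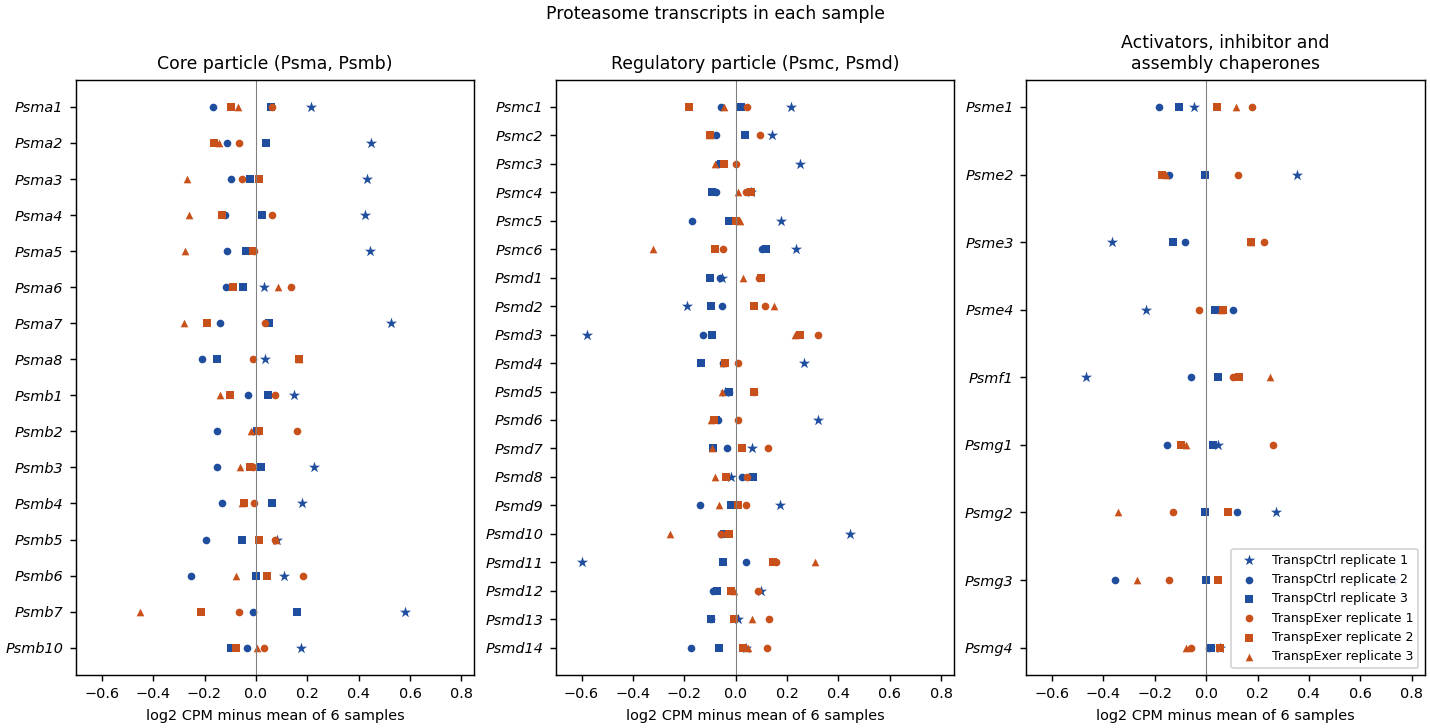
Log2 CPM of each tested proteasome gene in each sample, minus the mean of the 6 samples (horizontal axis), with TranspCtrl in blue and TranspExer in orange and 1 marker shape per replicate. TranspCtrl replicate 1 (stars) is the highest sample for 12 of 16 core genes, and lies far below the other samples for *Psmd3*, *Psmd11* and *Psmf1*.

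Among the activators, *Psme3* rose. It encodes the nuclear activator cap of the proteasome, which supports degradation without ubiquitin. It had 96.7, 118 and 114 CPM in TranspCtrl and 146, 141 and 141 CPM in TranspExer. All TranspExer samples lay above TranspCtrl, and TranspCtrl replicate 1 was again the lowest. The mean went from 110 ± 11.3 to 143 ± 2.81 CPM (SD, n = 3 each), a log2 fold change of 0.38 (SE 0.09, edgeR adjusted p = 0.0158). It was 0.30 without TranspCtrl replicate 1 (edgeR adjusted p = 0.000526), and it passed in 12 of 15 alternative settings, again all but those without a TranspExer sample. The gene lies at chr11:101316213-101323537 (mm10, plus strand).

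The cytoplasmic activator is a ring of the *Psme1* and *Psme2* products, and is known for its induction by interferon. *Psme1* had 144, 131 and 138 CPM in TranspCtrl and 168, 153 and 161 CPM in TranspExer (log2 fold change 0.22, SE 0.08, edgeR adjusted p = 0.0622). *Psme2* had 151, 107 and 118 CPM and 129, 105 and 106 CPM (log2 fold change -0.15, SE 0.14, adjusted p = 0.462, and 0.01 without TranspCtrl replicate 1). The groups did not overlap for *Psme1* and overlapped for *Psme2*, whose highest sample was TranspCtrl replicate 1. Reads of *Psme2* could be shared with its near copy *Psme2b*, listed with 34 to 133 counts. *Psme4*, which encodes a large single-chain activator, had 116, 147 and 140 CPM in TranspCtrl and 134, 143 and 142 CPM in TranspExer (log2 fold change 0.06, SE 0.10, adjusted p = 0.658).

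*Psmf1*, which encodes a proteasome inhibitor that also takes part in proteasome transport and assembly, had 23.4, 31.1 and 33.4 CPM in TranspCtrl and 34.8, 35.4 and 38.5 CPM in TranspExer (log2 fold change 0.31, SE 0.13, edgeR adjusted p = 0.112). Its groups did not overlap, with TranspCtrl replicate 1 far below the rest. Without that sample the log2 fold change was 0.17, and the gene passed in 0 of 15 settings. *Psmg1* to *Psmg4* encode the chaperones that build the alpha ring, and they had low counts. *Psmg1* had 14.8, 12.9 and 14.6 CPM in TranspCtrl and 17.2, 13.4 and 13.6 CPM in TranspExer, and *Psmg2* had 14.9, 13.4 and 12.3 CPM and 11.3, 13.1 and 9.74 CPM. *Psmg3* had 11.1, 5.24 and 6.7 CPM and 6.07, 6.92 and 5.56 CPM, and *Psmg4* had 10.2, 9.91 and 9.95 CPM and 9.42, 10.2 and 9.29 CPM. The groups of all 4 overlapped, with log2 fold changes of 0.06, -0.25, -0.32 and -0.05 and edgeR adjusted p-values of 0.739, 0.195, 0.386 and 0.714. The negative value of *Psmg3* rested on TranspCtrl replicate 1, and without that sample it was 0.04. The median over the 9 genes was 0.06, and -0.03 with scaling by library size only.

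Promoters are printed for *Psme3* and *Psmc6*, 2 of the genes that changed, and for *Psmb5*, the main inhibitor target, to show the motifs that were counted. They are the bases upstream of both the RefSeq transcript start (GRCm38.p6) and the annotated gene start, 5′ to 3′ on the gene's strand. In *Psme3* (chr11:101315963-101316212, plus strand) capitals mark a CCAAT box on the reverse strand. In *Psmc6* (chr14:45329574-45329787, plus strand) they mark, in order, a reverse match to the core of the antioxidant response element (TGACNNNGC), the element read by the transcription factors of *Nfe2l1* and *Nfe2l2*, and 3 Sp1 boxes (GGGCGG or its complement). In *Psmb5* (chr14:54618023-54618245, minus strand) they mark a forward match to TGACNNNGC.
Psme3: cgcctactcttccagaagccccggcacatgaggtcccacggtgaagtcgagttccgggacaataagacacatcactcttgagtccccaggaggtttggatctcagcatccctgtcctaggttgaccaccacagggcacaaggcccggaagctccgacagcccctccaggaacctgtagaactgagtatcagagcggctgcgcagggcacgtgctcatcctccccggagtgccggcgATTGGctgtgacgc
Psmc6: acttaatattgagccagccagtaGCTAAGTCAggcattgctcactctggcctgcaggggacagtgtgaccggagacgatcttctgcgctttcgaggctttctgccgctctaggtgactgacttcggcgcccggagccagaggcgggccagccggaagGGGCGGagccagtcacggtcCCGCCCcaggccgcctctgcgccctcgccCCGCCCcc
Psmb5: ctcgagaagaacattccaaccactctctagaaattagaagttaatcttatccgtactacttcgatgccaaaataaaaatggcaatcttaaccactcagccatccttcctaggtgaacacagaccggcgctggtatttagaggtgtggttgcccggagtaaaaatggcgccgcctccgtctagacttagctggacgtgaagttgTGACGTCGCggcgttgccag

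RefSeq windows of 250 bases before to 50 bases after a start were given for 38 of the 46 genes, in 41 windows. On either strand, TGACNNNGC was in 14.6% of these windows and 12.4% of all 32851 mouse windows, and CCAAT was in 31.7% and 37.4%. GGGCGG was in 56.1% of proteasome windows and 35.7% of all, and TTCNNNGAA, the core of the interferon-gamma activated site, in 4.88% and 8.3%. No motif contains another, although matches can overlap, and a match of letters is a description and not a binding site. Windows of 2 of the 4 genes that changed, *Psmc6* and *Psme3*, were searched here, and those of *Psmd3* and *Psmb7* were not.

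TranspCtrl replicate 1 carried much of the spread of the proteasome genes. It was the highest of the 6 samples for 26 of 45 (57.8%, beside 31.8% of all genes) and the lowest for 6 (13.3%, beside 33.1%). Among core genes it was the highest for 12 of 16 and the lowest for none, and core genes summed to 1425 CPM in it, against 1095 and 1203 CPM in TranspCtrl replicates 2 and 3 and 1233, 1134 and 1105 CPM in TranspExer. The regulatory particle summed to 2039 CPM in that sample, against 1964 and 1976 CPM in the other TranspCtrl samples and 2160, 2065 and 2061 CPM in TranspExer. The activators, inhibitor and chaperones summed to 582, 575 and 587 CPM in TranspCtrl and 657, 621 and 627 CPM in TranspExer. On this scale the sums overlapped between the groups for the core and not for the other 2 sets. As summed TPM all 3 sets overlapped, with 2335, 2245 and 2208 against 2323, 2280 and 2278 TPM for the regulatory particle and 873, 782 and 802 against 881, 827 and 835 TPM for the activators, inhibitor and chaperones. The deviation of genes from their mean was related to gene length in this sample (Spearman's rho across 15190 genes of -0.24, a description since genes are not independent replicates), beside rho between -0.06 and 0.21 in the others. The relation to GC content separated the groups, with rho between -0.2 and -0.14 in the TranspCtrl samples and between 0.16 and 0.2 in the TranspExer samples. The transcripts of *Psmc6* and *Psmb7*, which fell and lost their calls with a GC trend in the fit (log2 fold changes then -0.18 and -0.42), had 42.1% and 44.7% GC, and those of *Psmd3* and *Psme3*, which rose, had 56.2% and 47.8%, beside a median of 50.3% for all tested genes. The median deposited length was 1183 bases for core genes, 1700.5 for the regulatory particle, 1059 for the other factors and 2750 for all tested genes. The part of length, GC content or RNA quality in these values was not tested beyond fits with a length or a GC trend, chosen after seeing the data. With the length trend 5 proteasome genes rose and 2 fell, beside 18.1% and 17.1% of all genes. With the GC trend 3 rose and 0 fell, beside 15.2% and 15% of all genes, and 6 and 1 had an unadjusted p-value under 0.05. The share of all genes with such an unadjusted p-value is not given here for this fit.

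Without TranspCtrl replicate 1, more proteasome genes passed. edgeR then called 9 genes higher and 2 lower in TranspExer, beside 22.1% and 19.6% of 15494 genes and 41.7% in either direction. The genes that rose were 6 of the regulatory particle (*Psmd1*, *Psmd2*, *Psmd3*, *Psmd11*, *Psmd13* and *Psmd14*), the activators *Psme1* and *Psme3*, and the catalytic subunit *Psmb5*. The lid subunit gene *Psmd13* stood at 0.16 (edgeR adjusted p = 0.0442), *Psmd14* at 0.18 (adjusted p = 0.0258) and *Psmb5* at 0.18 (adjusted p = 0.034). *Psmd2* stood at 0.18 (adjusted p = 0.0105), *Psmd11* at 0.21 (adjusted p = 0.0159) and *Psme1* at 0.25 (adjusted p = 0.00348). *Psmb7* and *Psmc6* remained the genes that fell. Most of the negative core values moved towards 0, with a core median of 0.01 in place of -0.08, and *Psma7* went from -0.31 to -0.10, *Psma2* from -0.27 to -0.09, *Psma4* from -0.23 to -0.06 and *Psma5* from -0.21 to -0.02. The regulatory particle's median went from 0.02 to 0.08. In this fit 0 of the 45 genes reached a 2-fold change, beside 9.05% of the 15190 genes tested in both fits. None passed both thresholds, beside 8.27% of all genes. An unadjusted p-value under 0.05 was found for 13 of the 45, beside 7570 of the 15190 genes tested in both fits. The 95% interval lay within 0.5 for 43 of 45. Leaving out any 1 TranspExer sample instead left no proteasome gene with an adjusted p-value under 0.05 by edgeR. Fewer genes passed over the whole table as well, at 18.4%, 16.9% and 17.3% of all tested genes without TranspExer replicates 1, 2 and 3. The smallest adjusted p of a proteasome gene was then between 0.0544 and 0.0598, and between 3 and 6 proteasome genes had an unadjusted p-value under 0.05. The share of all genes with such an unadjusted p-value is not given here for these fits.

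**Figure D3:**
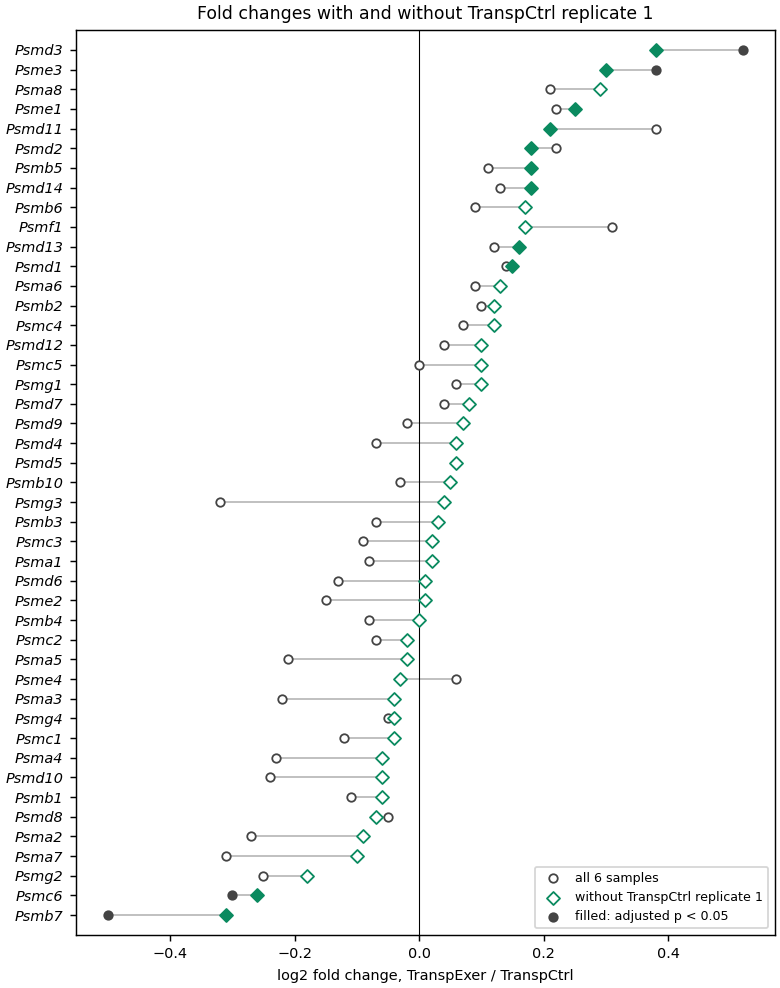
Log2 fold change of each tested proteasome gene (TranspExer over TranspCtrl, horizontal axis) with all 6 samples (circles) and without TranspCtrl replicate 1 (diamonds), filled where the edgeR adjusted p-value was under 0.05. Filled symbols number 4 with all samples and 11 without that replicate, and the negative values of core genes such as *Psma7* shrink towards 0.

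Levels within the proteasome were compared per length, as TPM computed from the deposited gene lengths, whose definition is not given in the sources used here. The highest mean over the 6 samples was that of *Psmd8*, a lid subunit, at 293 TPM, with 302 ± 8.31 TPM in TranspCtrl and 285 ± 7.5 TPM in TranspExer (SD, n = 3 each). The interferon-inducible activators followed, *Psme1* at 278 TPM and *Psme2* at 257 TPM. *Psme1* was at 260 ± 10.3 and 297 ± 10.8 TPM and *Psme2* at 273 ± 48.9 and 242 ± 25.3 TPM in TranspCtrl and TranspExer, so *Psme1* exceeded *Psme2* by more than either SD in TranspExer, and the opposite order of the TranspCtrl means was within the SD of *Psme2* and rested on TranspCtrl replicate 1 alone. Of the catalytic subunits, *Psmb6* was at 192 TPM and *Psmb5* at 185 TPM, and *Psmb7* at 114 TPM and *Psmb10* at 109 TPM. In TranspCtrl, *Psmb7* was at 134 ± 28.8 and *Psmb10* at 112 ± 11.4 TPM, and in TranspExer *Psmb7* was at 93.0 ± 11.1 and *Psmb10* at 107 ± 3.28 TPM. The means of the constitutive subunit and its inducible counterpart thus stood in the opposite order in the 2 groups, by less than the SD of *Psmb7* in TranspCtrl and by more than either SD in TranspExer.

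Most core subunits, which enter the particle in equal numbers, lay between 105 TPM (*Psma5*) and 207 TPM (*Psma6*). Exceptions were *Psma2* at 51.4 TPM, *Psma3* at 44.1 TPM and the testis subunit *Psma8* at 3.0 TPM. The deposited lengths of *Psma2* and *Psma3*, 2911 and 2846 bases, were well above the core median, and their mean CPM in TranspCtrl (78.7 and 65.0) was close to that of *Psma5* (67.4). The base chaperones *Psmd5*, *Psmd9* and *Psmd10* (20.7, 17.3 and 21.3 TPM) and the alpha ring chaperones *Psmg1* to *Psmg4* (28.6, 24.5, 16.3 and 36.8 TPM) lay below every constitutive structural subunit. Activators differed as well, with *Psme3* at 98.3 TPM and *Psme4* at 43.9 TPM, and the inhibitor *Psmf1* was at 49.1 TPM.

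**Figure D4:**
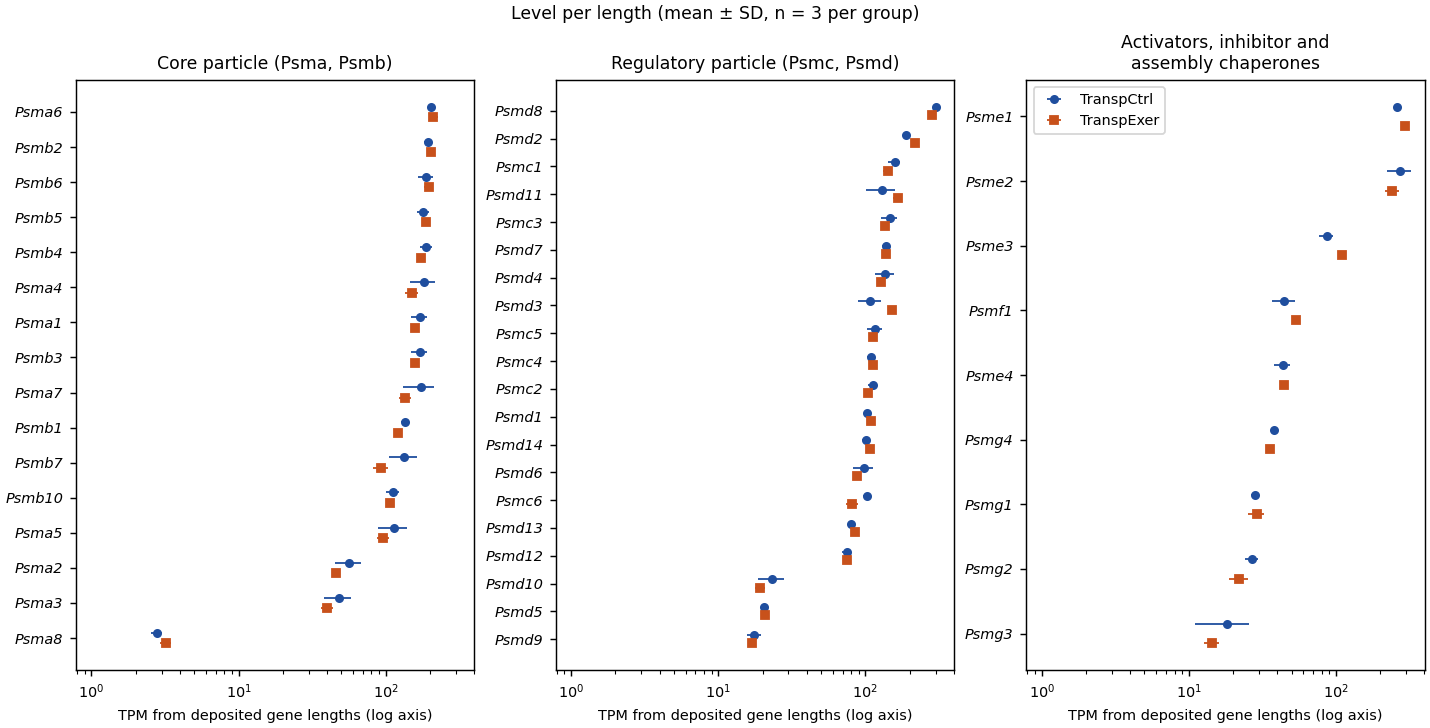
Level of each tested proteasome gene in TPM (log axis), as the mean with SD of 3 samples in TranspCtrl (blue circles) and TranspExer (orange squares). *Psmd8*, *Psme1* and *Psme2* are the highest, and *Psma8* and the assembly chaperones are the lowest in their panels.

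Other genes of the ubiquitin and proteasome pathway were read beside the proteasome itself, in lists of 47 tested genes. Of these, 16 rose and 4 fell (42.6%, beside 32.2% of all genes), and 0 passed both thresholds by edgeR, DESeq2 or limma voom. By edgeR, 26 of the 47 had an unadjusted p-value under 0.05, beside 6740 of all 15190 tested genes. Between 5 and 7 of the 47 rose when a TranspExer sample was left out, beside 1315 to 1458 of the 15512 to 15625 genes tested then. Without TranspCtrl replicate 1, 9 of the 47 fell, beside 19.6% of all genes. The median log2 fold change of the 47 genes was 0.06, and -0.02 with upper-quartile normalization or scaling by library size only. Among 11 proteins that bind the proteasome or serve its assembly and import, 6 rose and none fell, beside 16.6% and 15.5% of all genes. *Adrm1*, the ubiquitin receptor seated on the *Psmd1* product, had 52.8, 60.7 and 61.1 CPM in TranspCtrl and 88.1, 90.7 and 88.0 CPM in TranspExer (log2 fold change 0.61, SE 0.08, edgeR adjusted p = 0.00133). *Zfand5*, a proteasome-binding activator, rose by 0.57 (adjusted p = 0.00873) and *Usp14*, a deubiquitinase that docks on the regulatory particle, by 0.33 (adjusted p = 0.0251). The TranspExer samples lay above all TranspCtrl samples for each of these 3 genes, which were picked for their small adjusted p. The same held for 7 of the 11 genes and for 27.2% of all tested genes.

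Of 8 genes of the *Nfe2l1* axis, 2 rose and 1 fell (37.5%, near the 32.2% of all genes). Without TranspCtrl replicate 1, 3 rose and 2 fell (62.5%, beside 41.7% of all genes). *Nfe2l1* itself had 221, 255 and 239 CPM in TranspCtrl and 210, 203 and 221 CPM in TranspExer (log2 fold change -0.17, edgeR adjusted p = 0.154), and was named after its values were seen. It passed in 4 of 15 settings, among them the one without TranspCtrl replicate 1 (-0.22, edgeR adjusted p = 0.00593). *Ngly1*, the deglycosylating enzyme that the factor needs for its activation, fell by 0.47 (adjusted p = 0.00375), and the small Maf partners *Mafk* and *Mafg* rose by 0.47 (adjusted p = 0.0114) and 0.33 (adjusted p = 0.0139). Of 13 genes that extract or deliver ubiquitinated proteins, 6 rose and 1 fell, beside 16.6% and 15.5% of all genes. *Rad23b*, which encodes a shuttle protein, fell by 0.36 (SE 0.07, edgeR adjusted p = 0.0077), and *Ubqln4*, another shuttle gene, rose by 0.42 (adjusted p = 0.0166).

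The gene for a ubiquitin-activating enzyme, *Uba6*, fell by 0.36 (edgeR adjusted p = 0.0203), and *Rps27a*, which encodes ubiquitin fused to a ribosomal protein, stood at -0.53 (SE 0.20, adjusted p = 0.0756), and at -0.25 without TranspCtrl replicate 1, where it passed (edgeR adjusted p = 0.0188). Of 9 genes of the immunoproteasome and of peptide supply, the peptide transporter gene *Tap2* rose by 0.23 (adjusted p = 0.0473), and *Nlrc5*, an activator of MHC class I genes, fell by 0.48 (adjusted p = 0.033). *Irf1*, an interferon-response factor, stood at -0.45 (adjusted p = 0.0976), and at -0.18 without TranspCtrl replicate 1, where it passed (edgeR adjusted p = 0.0387). *Nlrc5* stood at -0.30 in that fit (adjusted p = 0.00266), and *Tap2* passed in only 2 of 15 settings. With the GC trend *Tap2*, *Mafg* and *Uba6* no longer passed (adjusted p = 0.543, 0.361 and 0.154). Of 10 cell cycle genes, which are not among the 47, 4 rose and 1 fell, beside 16.6% and 15.5% of all genes. How far differences in cell makeup enter these pathway values was not tested.

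**Figure D5:**
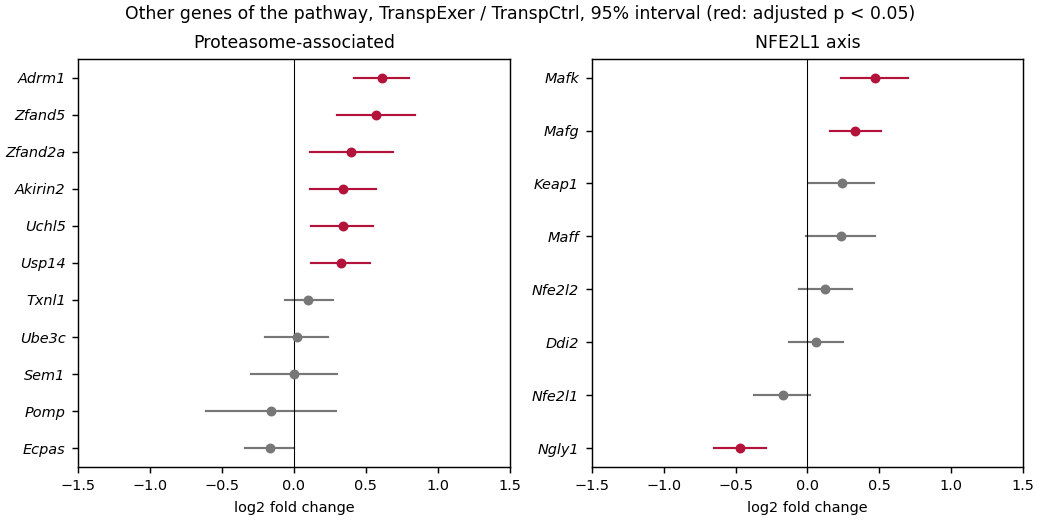
Log2 fold change (points, TranspExer over TranspCtrl, horizontal axis) with unadjusted 95% interval (lines) for the proteasome-associated genes and the *Nfe2l1* axis, with red for an edgeR adjusted p-value under 0.05. *Adrm1* leads the proteasome-associated genes at 0.61 and *Ngly1* is the only gene that fell in the *Nfe2l1* list.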

How the data were processed

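The authors deposited estimated counts (expected counts, not normalized) per gene for 6 samples of BM MSCs, 3 per group as the sample labels give them. A stranded mRNA kit is named in the labels, and a TruSeq kit in the study's methods. The submitters' notes give the build mm10. The aligner, counting tool, annotation and test for DEGs are not given in the sources used here. Expected counts were rounded to whole numbers before testing (10.1% to 12.2% of values per sample had a fractional part).

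Differential expression was tested with edgeR 4.0.16 in R 4.3.3 (filterByExpr, TMM normalization, quasi-likelihood test, group as the only term) over all 15190 genes that passed the filter, with Benjamini-Hochberg adjustment. Genes "rose" or "fell" at an adjusted p-value under 0.05, and DEGs also had an absolute fold change of at least 2. The SE was the log2 fold change over the square root of F. CPM values used TMM factors. Floors of 3 counts used unscaled totals and cover counting error only. TPM was computed from the deposited lengths. Coordinates came from GENCODE M21 (mm10), in which all 46 genes were found, and promoters from RefSeq. By that annotation the exons of 11 of the 46 overlap another gene, and 5 have a pseudogene or near copy in the table, at 2 counts or fewer except for *Psme2b*.

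Values in every sample were given for the catalytic subunits, the activators, inhibitor and chaperones, *Psmb11*, and up to 6 genes each of the core and the regulatory particle with the smallest adjusted p among those with groups that did not overlap. Pathway lists were given by up to 3 genes with the smallest adjusted p, and 2 genes of these lists are counted but not reported here by name. The genes and lists were chosen with earlier results of these data known.

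Alternatives were DESeq2 1.42.0, limma 3.58.1 with voom, upper-quartile normalization, library size only, no filter, a filter of 1 CPM in 3 samples, the replicate number as a block and each sample left out in turn. Fits with a trend of gene length or GC content (known for 98.6% of tested genes) were chosen after seeing the data. The scripts were tested on simulated data. Replicate numbers did not pair the samples.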

Additional observations from a re-analysis of the deposited data

How the results depend on the processing

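Under 15 alternative settings, 0 of 45 proteasome genes passed both thresholds in any. The count of genes that rose was 2, and it was 4 with DESeq2, 5 with the length trend, 3 with no filter or with the GC trend, and 0 to 9 when 1 sample was left out. The count that fell was 2, and it was 1 with limma voom, 0 with the GC trend, and 0 to 2 with 1 sample left out. For core genes, 2 rose with the length trend and 0 fell with limma voom or the GC trend, and with 1 sample left out 0 to 1 rose and 0 to 1 fell. For the regulatory particle, 2 rose with DESeq2, with no filter or with the GC trend and 0 fell with the GC trend, and with 1 sample left out 0 to 6 rose and 0 to 1 fell. For the activators, inhibitor and chaperones, 2 rose with DESeq2 or the length trend, and 0 to 2 with 1 sample left out. *Psmb7* was lost with limma voom and with the GC trend, although its log2 fold change stayed between -0.62 and -0.31 in all 15 settings, and had adjusted p-values of 0.0171 to 0.165 with 1 sample left out, over 0.05 without TranspCtrl replicate 3 or any TranspExer sample. *Psmc6* had 0.0127 to 0.121 then, under 0.05 only without TranspCtrl replicate 1. *Psmd3* (0.000106 to 0.0668) and *Psme3* (0.000526 to 0.0598) were lost only where a TranspExer sample was left out, which leaves 2 samples in that group.

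The median log2 fold change of the regulatory particle was -0.06 with upper-quartile normalization and -0.07 with library size only (-0.02 to 0.08 with 1 sample left out). That of the activators, inhibitor and chaperones was -0.03 with library size only and 0.14 with the length trend (-0.04 to 0.08 with 1 sample left out). Of the 47 pathway genes, 7 fell with upper-quartile normalization, library size only or the length trend, and with 1 sample left out 5 to 17 rose, 2 to 9 fell and 0 to 1 passed both thresholds, the gene being the shuttle gene *Ubqln2*, named after its values were seen. Their median of 0.06 turned to -0.02 with upper-quartile normalization and -0.02 with library size only, and was 0.11 with the length trend and 0.05 to 0.10 with 1 sample left out. Over all genes, 2523 rose and 2361 fell, against 2052 and 2901 with upper-quartile normalization and 2013 and 2962 with library size only. With 1 sample left out, 1315 to 3417 of all genes rose and 1325 to 3041 fell. None of the 4 proteasome genes that changed turned its direction in any setting. The cause of these changes was not tested.

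Samples with the same replicate number did not deviate together (correlations of 0.02, 0 and 0.04 across genes). With the replicate block, 2 proteasome genes rose and 2 fell, and 14 pathway genes rose and 5 fell.

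*Psmg3*, with 102 to 228 counts, had the largest SE of the 45 genes (0.27), and *Psmb11* was not detectable beyond 3 counts. The design has 3 samples a group, and TranspCtrl replicate 1 sets much of the spread.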
